A study of Mus musculus with 28 samples.

Results

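The 37 genes described here are known targets of the tumour suppressor p53 or members of the DNA damage response. They were taken by name from a list of 38 entries in which Tnfrsf10b was repeated. Each had 1 row among the 55573 genes of the whole-body table and 1 among the 57126 genes of the keratinocyte table, and all 37 passed the filter on low counts in both.

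Skin RNA was sequenced from 12-week-old female mice, in 28 libraries. The study examined VISTA, an immune checkpoint protein encoded by Vsir. In the whole-body experiment, wild-type mice (WT) were compared with Vsir-/- mice, which lack the gene in all cells (KO), with 3 libraries each without ultraviolet light (NoUV) and after it (UV). In the keratinocyte experiment, Vsir fl/fl mice without Cre (FL) were compared with K14cre Vsir fl/fl mice (cKO), with 4 libraries in each of the 4 groups. In cKO mice the keratin 14 promoter drives Cre in keratinocytes, and Vsir remains in other skin cells. All mice lost their hair 5 days earlier, and the UV groups received 500 mJ/cm2 of UVB, the middle band of ultraviolet light. The titles and the design place the harvest at 3 h after UV, whereas the treatment protocol gives 1 day, and the labels do not settle which holds. The experiments carry different batch dates, so levels were compared only within an experiment.

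UVB forms pyrimidine dimers in DNA, which stall replication and transcription and activate the kinases ATR and ATM. These kinases, partly through CHEK2, stabilise p53, which MDM2 and MDM4 otherwise restrain. Stabilised p53 switches on genes of cell cycle arrest, DNA repair, antioxidant defence and cell death, and also Mdm2 and Ppm1d, whose products return the system to rest. In epidermis, p53 is known for arresting damaged keratinocytes or removing them as sunburn cells. Much of p53 control acts on the protein, which was not measured here.

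Levels are given as CPM (counts scaled to library size) after TMM scaling, a correction for library composition. A gene is called higher or lower when its log2 fold change, UV over NoUV, had a Benjamini-Hochberg adjusted p under 0.05 over all genes tested in edgeR's quasi-likelihood test. Each whole-body library held 30.47 to 43.84 M counts. Keratinocyte libraries held 7.12 to 31.14 M. FL_NoUV 1 (7.12 M) and cKO_UV 3 (7.51 M) were the shallowest. Vsir ran from 1.98 to 6.86 CPM in KO against 20.2 to 46 CPM in WT. In cKO it ran from 14.5 to 44.9 CPM, overlapping the 19.4 to 38.5 CPM of FL.

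Some libraries stood apart. WT_NoUV 1 was above all or below all of the other 5 NoUV libraries of its experiment for 31 of the 37 members. Among the UV libraries, WT_UV 2 was outside the other 5 for 23 members and WT_UV 1 for 17. Every other whole-body library was outside for 2 to 15 members, so WT_UV 1 was close to the rest. FL_NoUV 1 was outside the other 7 NoUV libraries of its experiment for 17 members, against 4 to 13 for the other keratinocyte libraries. For each member some library must be highest and some lowest, and these counts were not taken over all genes. Summed hair follicle markers reached 6140 CPM in FL_NoUV 4 and 8890 CPM in cKO_NoUV 1, against 375 to 1070 CPM in the other NoUV libraries of that experiment. Hoxc10, a posterior HOX gene, had 0 to 2 counts in NoUV and 137 to 272 counts in UV libraries of the whole-body experiment, so body site and UV cannot be told apart there. In cKO it had 2, 112, 94 and 115 counts without UV and 2, 2, 0 and 0 after it, so the same holds for cKO apart from cKO_NoUV 1. In FL the counts were mixed, at 4, 66, 146 and 120 without UV and 42, 0, 52 and 128 after it. Marker sums of keratinocytes ran from 9170 to 34700 CPM over all 28 libraries, and all 8 markers were above the floor of 3 counts in every group. Skeletal muscle sums ran from 3380 to 30100 CPM. In bulk skin, fewer cells of a type and less RNA per cell cannot be told apart.

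Promoters of the members were searched for 3 short motifs, and the stretches that bear on the results are shown first. RefSeq promoters of GRCm38.p6 hold 250 bases before the start and 50 after, and 31 of the 37 members had an entry. Some had several, 39 entries in all, and a member counts as holding a motif if any of its entries does. The shares of all promoters count each entry by itself, so the shares of members and of promoters are in unlike units. The p53 half-site, of which p53 binds pairs, was found on either strand in 11 of these 31 members (35.5%) and in 8.36% of all 32851 promoters. It was present in Cdkn1a, Gadd45a and Aen, which rose after UV, in Ppm1d and Sesn1, which fell, and in Trp53, Mdm2, Ccng1, Bax, Ei24 and Polk, which were not called. These 4 stretches are written 5′ to 3′ on the gene's strand, with the half-site in capitals, to set the promoter of a rising member, Cdkn1a, beside those of Ppm1d, which fell, and of Mdm2 and Bax, which were not called.
Cdkn1a, chr17:29090861-29090960, plus strand: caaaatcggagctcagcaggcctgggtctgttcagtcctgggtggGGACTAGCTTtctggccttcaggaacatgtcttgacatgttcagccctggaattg
Ppm1d, chr11:85311077-85311176, plus strand: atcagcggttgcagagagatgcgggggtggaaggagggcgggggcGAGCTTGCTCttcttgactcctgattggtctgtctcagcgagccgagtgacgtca
Mdm2, chr10:117710890-117710989, minus strand: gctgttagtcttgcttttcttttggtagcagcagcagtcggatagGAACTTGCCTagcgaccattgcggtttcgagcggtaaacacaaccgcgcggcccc
Bax, chr7:45467045-45467144, minus strand: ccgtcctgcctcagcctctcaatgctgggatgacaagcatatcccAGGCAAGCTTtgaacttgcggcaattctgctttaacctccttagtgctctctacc

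In Cdkn1a the capitals mark bases -73 to -64 from the start, and a further half-site lay at -51 to -42. A match is a string of letters and not a measured p53 site, and p53 elements outside these windows were not searched. The members' list was drawn from known p53 targets, so the share of members with a half-site is a description only. The cyclic AMP response element, TGACGTCA, was in 4 of the 31 members (12.9%) and in 1.79% of all promoters. It was in Plk2 and Btg2, which rose, in Ppm1d, which fell, and in Epha2, which was not called. The first 3 are shown with that element in capitals.
Plk2, chr13:110394937-110395034, plus strand: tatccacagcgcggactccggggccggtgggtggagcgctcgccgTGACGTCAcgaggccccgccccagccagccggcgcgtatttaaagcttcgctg
Btg2, chr1:134079269-134079366, minus strand: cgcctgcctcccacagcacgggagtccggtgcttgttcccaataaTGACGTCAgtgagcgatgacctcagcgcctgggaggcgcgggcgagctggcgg
Ppm1d, chr11:85311124-85311221, plus strand: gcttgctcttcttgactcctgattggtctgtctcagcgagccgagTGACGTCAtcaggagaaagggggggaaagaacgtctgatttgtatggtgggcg

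The AP-1 motif TGAGTCA, on either strand, was in Mdm4 and Fas, 6.45% of members with a promoter against 5.2% of all promoters. No member held more than 1 kind of motif except Ppm1d, which held the half-site and the cyclic AMP response element. TGACGTCA does not contain TGAGTCA, so 1 match cannot count for both.

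After UV, 5 members rose in all 4 mouse groups: Plk2, Cdkn1a, Gadd45b, Sertad1 and Pmaip1. In at least 1 group, 11 members were called higher and 8 lower, and 18 were called in none. Such counts across the 4 groups were not taken over all genes, so they only describe the members. No member was called higher in 1 group and lower in another. In WT, 7 members were higher and 5 lower, 32.4% of the 37, where 18.7% of all 20365 genes tested were called. In KO, 9 were higher and 5 lower, 37.8% of members against 22.4% of genes. In FL, 8 were higher and 2 lower, 27% against 7.62% of 19718 genes. In cKO, 9 were higher and 1 lower, 27% against 9.72%. In the higher direction alone, members and all genes stood at 18.9% and 8.91% in WT, 24.3% and 11.3% in KO, 21.6% and 3.52% in FL, and 24.3% and 4.57% in cKO. In the lower direction, members and all genes stood at 13.5% and 9.84% in WT, 13.5% and 11.1% in KO, 5.41% and 4.09% in FL, and 2.7% and 5.15% in cKO. The count of members called lower was therefore near the background in WT, KO and FL and under it in cKO. Libraries with and without UV did not overlap for 7 higher and 5 lower members in WT, 13 and 8 in KO, 12 and 3 in FL, and 12 and 2 in cKO. Over all genes these shares were 14.5% and 14.9% in WT, 25.3% and 25.5% in KO, 6.67% and 7.79% in FL, and 8.60% and 9.04% in cKO. The members' shares were 18.9% and 13.5% in WT, 35.1% and 21.6% in KO, 32.4% and 8.11% in FL, and 32.4% and 5.41% in cKO, so the lower counts stood near or under the background in all 4 groups. The median log2 fold change of the 37 members was 0.02 in WT, -0.01 in KO, 0.39 in FL and 0.14 in cKO, against -0.01, 0.02, 0.01 and 0.01 over all genes.

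The WT count moved in both directions when libraries were left out. Without WT_NoUV 1 and WT_UV 1, an alternative chosen after the values were seen, 17 members were called in WT, 11 higher and 6 lower. Btg2 was lost (edgeR adjusted p = 0.0653), and Bax (1.12, adjusted p = 0.0042), Aen (0.94, 0.00192), Pidd1 (0.93, 0.0396), Tnfrsf10b (1.36, 0.0358) and Gdf15 (2.77, 0.0222) joined the higher calls, given as log2 fold change and edgeR adjusted p. Atr joined the lower ones (-0.54, edgeR adjusted p = 0.0159). The WT count was 13 without WT_NoUV 1 alone and 14 without WT_UV 1 alone. By contrast, it fell to 9 without WT_UV 2, which stood apart for more members than WT_UV 1. Without WT_NoUV 3, 6 members were called in WT. With the WT libraries fitted alone, 4 were called, Plk2, Gadd45a, Gadd45b and Sertad1. The KO count of 14 fell to 8 without KO_NoUV 1 or KO_NoUV 2 and to 9 without KO_UV 1 or KO_UV 3. With the KO libraries fitted alone, the KO count rose to 18. It was 17 with both WT libraries numbered 1 left out, when Chek2 (-0.60, edgeR adjusted p = 0.0177), Bax (0.67, 0.014) and Bbc3 (-1.03, 0.00656) were added. The FL and cKO counts stayed between 9 and 14 with any 1 library left out.

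**Figure D1:**
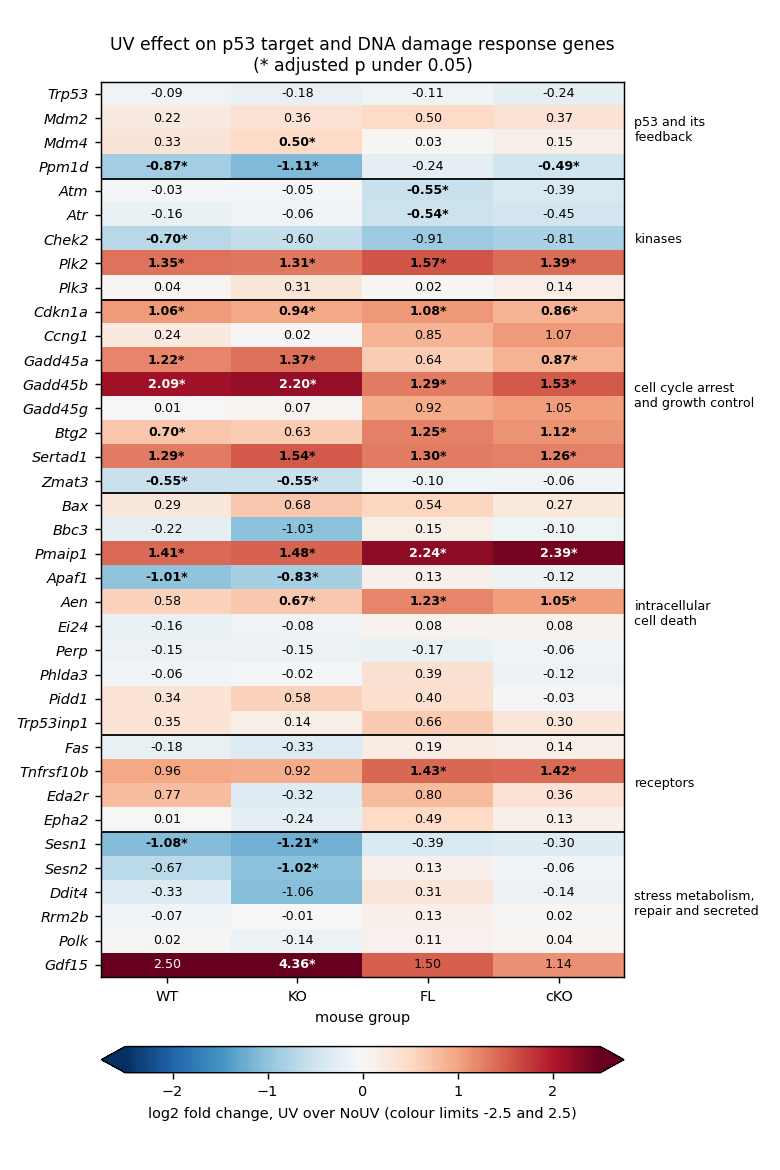
Log2 fold change, UV over NoUV, of the 37 members (rows, by role) in WT, KO, FL and cKO (columns), with an asterisk where the edgeR adjusted p was under 0.05. Plk2, Cdkn1a, Gadd45b, Sertad1 and Pmaip1 carry an asterisk in all 4 columns, and the colour of Gdf15 in KO, 4.36, exceeds the scale.

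Among p53 and its feedback genes, Trp53 itself, the gene of p53, was not called in any group. Its log2 fold change was -0.09 ± 0.17 (SE) in WT, -0.18 ± 0.17 in KO, -0.11 ± 0.17 in FL and -0.24 ± 0.17 in cKO. Its mean level in the whole-body experiment ran from 37.6 ± 4.83 CPM (SD, n = 3) in KO_UV to 52.6 ± 10.1 CPM (SD, n = 3) in WT_NoUV, and in the keratinocyte experiment from 58.9 ± 10.8 CPM (SD, n = 4) in cKO_UV to 77.4 ± 13.9 CPM (SD, n = 4) in FL_NoUV. Mdm2, the ubiquitin ligase that removes p53 and a classical p53 target, had positive values that were not called: 0.22 ± 0.16 in WT, 0.36 ± 0.16 in KO, 0.50 ± 0.16 in FL and 0.37 ± 0.16 in cKO. In FL, Mdm2 stood at 99.4, 60.4, 59.2 and 54.3 CPM without UV and at 83.6, 108, 91.1 and 101 CPM after it (edgeR adjusted p = 0.0681). FL_NoUV 1, the shallow library, alone overlapped the UV libraries. Without it the FL call and the cKO call of Mdm2 both passed the threshold, with edgeR. In FL, Mdm2 was called in 5 of 24 alternative settings. These included DESeq2, hair follicle and muscle scores as covariates, and the replicate number as a block. It was called in 2 of 19 settings in KO, 2 of 24 in cKO and 0 of 19 in WT. Its KO libraries did not overlap, at 59.2 to 63.4 CPM without UV and 71.2 to 83.8 CPM after it. Nor did those of cKO, at 66.8 to 74.2 and 82 to 97.8 CPM.

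Mdm4, which restrains p53 without degrading it, was called in KO. It stood at 113, 99.4 and 115 CPM without UV and at 141, 160 and 161 CPM after it, so the groups did not overlap, with a log2 fold change of 0.50 ± 0.16 (edgeR adjusted p = 0.0388). This call ended with the replicate number as a block (0.0577), with no filter on low counts (0.0864), with hair follicle and muscle scores as covariates (0.216), and without WT_NoUV 2 or any 1 of the 6 KO libraries (edgeR adjusted p 0.0601 to 0.151). Values in WT (0.33 ± 0.16), FL (0.03 ± 0.13) and cKO (0.15 ± 0.13) were not called.

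Ppm1d, a p53 target whose phosphatase switches the damage signal off, fell in WT, KO and cKO. In WT it stood at 23.9, 29.2 and 41.1 CPM without UV and at 15, 15.4 and 21 CPM after it (log2 fold change -0.87 ± 0.21, edgeR adjusted p = 0.0126). In KO it stood at 30.8, 31.6 and 39 CPM and then at 15.4, 13.9 and 17.7 CPM (-1.11 ± 0.21, edgeR adjusted p = 0.00292). In both groups every UV library lay below every NoUV library, and the level after UV was 0.546 and 0.464 times that before. In cKO it stood at 36.1, 31.4, 36.9 and 38.4 CPM and then at 26.4, 22.7, 23.6 and 28.7 CPM (-0.49 ± 0.12, edgeR adjusted p = 0.0151), again without overlap. In FL the UV libraries also lay below the NoUV ones, 29.8 to 36.5 against 36.6 to 44.7 CPM, but the value of -0.24 ± 0.12 was not called (edgeR adjusted p = 0.225). The WT call ended without WT_NoUV 3 (edgeR adjusted p = 0.0651) and with the WT libraries fitted alone (0.0828), and the cKO call with no filter on low counts (0.0707).

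Of the 5 kinases, Plk2 rose in all 4 groups and Atm, Atr and Chek2 were each called lower in 1. Plk2, a polo-like kinase induced by p53, stood in WT at 29.5, 30.3 and 34.6 CPM without UV and at 50.4, 61.8 and 128 CPM after it. The KO libraries stood at 29.5, 39.1 and 40.5 CPM and then at 88.6, 99.3 and 83.4 CPM. The libraries did not overlap in either group, and WT_UV 3 was the highest of the whole-body experiment. In FL it stood at 37.8, 32.7, 29.5 and 50.3 CPM and then at 113, 74.9, 130 and 129 CPM. The cKO libraries stood at 60.4, 29.8, 28.7 and 28.3 CPM and then at 88, 84.7, 119 and 94.8 CPM. Here cKO_NoUV 1, the library with the most hair follicle RNA, was the high one before UV and still below every UV library. The log2 fold changes were 1.35 ± 0.28 in WT, 1.31 ± 0.28 in KO, 1.57 ± 0.26 in FL and 1.39 ± 0.25 in cKO, that is 2.55, 2.49, 2.98 and 2.62-fold, with edgeR adjusted p from 0.0018 to 0.00529. Without WT_UV 3 the WT value was 0.82 (edgeR adjusted p = 0.00888). Plk2 was called in every alternative setting run in all 4 groups.

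Atm and Atr encode the apical kinases of the damage response. In FL, Atm stood at 94.1, 76.7, 61.9 and 76.5 CPM without UV and at 57.2, 56.6, 43.9 and 53.6 CPM after it, without overlap (-0.55 ± 0.13, edgeR adjusted p = 0.017). Atr stood at 59.8, 54, 41 and 56.1 CPM and then at 37.8, 31.4, 32.5 and 42.7 CPM, with FL_NoUV 3 inside the range after UV (-0.54 ± 0.16, edgeR adjusted p = 0.0474). In cKO the values were -0.39 ± 0.13 for Atm and -0.45 ± 0.16 for Atr, not called (edgeR adjusted p = 0.0701 and 0.0825) but called with the replicate number as a block (0.0201 and 0.0204). In WT and KO their values lay between -0.16 and -0.03. The Atm call ended without FL_UV 3 (edgeR adjusted p = 0.0501) and with the FL libraries fitted alone (0.0811). The Atr call was the weakest of the list, held in 8 of 24 alternative settings, and was lost with 11 of the 16 single libraries left out: FL_NoUV 1, 2 and 4, FL_UV 1, 2 and 3, cKO_NoUV 2, 3 and 4, and cKO_UV 2 and 4 (edgeR adjusted p 0.0529 to 0.128).

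Chek2, the checkpoint kinase downstream of ATM, fell in WT. It stood at 15.6, 13.2 and 13.8 CPM without UV and at 11.5, 7.11 and 7.62 CPM after it (-0.70 ± 0.21, edgeR adjusted p = 0.034). The values of -0.60 ± 0.21 in KO, -0.91 ± 0.32 in FL and -0.81 ± 0.32 in cKO were not called, although the libraries did not overlap in KO and FL. The WT call held in 10 of 19 alternative settings and was lost without WT_NoUV 1, 2 or 3, WT_UV 2 or 3, or KO_NoUV 1 or 2 (edgeR adjusted p 0.0503 to 0.0932), with the covariates (0.163) and with the WT libraries fitted alone (0.14). Plk3, another p53-induced polo-like kinase, was called nowhere, with log2 fold changes from 0.02 to 0.31.

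Of the 8 genes of cell cycle arrest and growth control, 5 were called higher in WT, 4 in KO, 4 in FL and 5 in cKO (62.5%, 50%, 50% and 62.5%, against 8.91%, 11.3%, 3.52% and 4.57% of all genes), and the group's median log2 fold change was 0.88, 0.78, 1 and 1.06. Cdkn1a, whose product p21 inhibits cyclin-dependent kinases, stood in WT at 217, 160 and 122 CPM without UV and at 249, 448 and 342 CPM after it. In KO it stood at 164, 140 and 106 CPM and then at 326, 240 and 217 CPM. No UV library fell to the NoUV range in either group, although WT_NoUV 1 and WT_UV 1 lay close together. The FL libraries stood at 97.5, 119, 122 and 140 CPM and then at 244, 250, 305 and 211 CPM. In cKO it stood at 155, 160, 146 and 139 CPM and then at 206, 263, 348 and 270 CPM. The rises of 2.08-fold in WT, 1.91-fold in KO, 2.11-fold in FL and 1.81-fold in cKO had log2 fold changes of 1.06 ± 0.26, 0.94 ± 0.26, 1.08 ± 0.16 and 0.86 ± 0.16 (edgeR adjusted p = 0.0135, 0.0203, 0.000901 and 0.00296). The FL and cKO calls held in all 24 settings. The WT call ended without WT_UV 2 or WT_NoUV 3 (edgeR adjusted p 0.0517 to 0.0588), with the covariates (0.0526) and with the WT libraries fitted alone (0.0523). The KO call ended without KO_UV 1, KO_NoUV 2 or KO_NoUV 3 (edgeR adjusted p 0.0623 to 0.106) and with the covariates (0.79, 0.143).

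Gadd45b, a stress sensor acting on p38 and JNK signalling and on cell cycle and repair, had the highest log2 fold change of the members called in WT. The WT libraries stood at 13.1, 7.98 and 9.85 CPM without UV and at 22.5, 66.2 and 42.9 CPM after it. The KO libraries stood at 9.55, 8.85 and 8.33 CPM and then at 50, 41.2 and 31.5 CPM. All UV libraries lay above all NoUV libraries. In FL it stood at 16.1, 11.6, 12.6 and 14.7 CPM and then at 30.9, 34.8, 31.8 and 36.7 CPM. The cKO libraries stood at 14.1, 11.4, 14.9 and 13.3 CPM and then at 28.1, 49.9, 44.3 and 32.7 CPM. The rises were 4.25-fold in WT, 4.58-fold in KO, 2.45-fold in FL and 2.88-fold in cKO (log2 fold change 2.09 ± 0.32, 2.20 ± 0.33, 1.29 ± 0.17 and 1.53 ± 0.18, edgeR adjusted p from 0.000228 to 0.00121), and each was called in every alternative setting.

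Gadd45a, the p53 target of the same family, had the smallest SE of the members called higher in the whole-body experiment. In WT it stood at 9.31, 9.56 and 10.9 CPM without UV and at 19.9, 25.5 and 23.8 CPM after it (1.22 ± 0.15, edgeR adjusted p = 0.000412). In KO it stood at 10.5, 12.1 and 11.3 CPM and then at 29.8, 30.2 and 27.6 CPM (1.37 ± 0.15, edgeR adjusted p = 0.000146). The groups were far apart in both, and both calls held in every alternative setting. In cKO it stood at 7.28, 5.1, 7.22 and 6.02 CPM and then at 11.5, 13.1, 10.7 and 11.4 CPM (0.87 ± 0.19, edgeR adjusted p = 0.00934, 0.0514 with no filter on low counts). The FL libraries stood at 4.67, 8.32, 5.83 and 7.92 CPM and then at 9.5, 10.2, 10.7 and 11.7 CPM, without overlap, yet its value of 0.64 ± 0.19 just missed the threshold (edgeR adjusted p = 0.0502). The FL value passed in 3 of 24 alternative settings: with DESeq2, with RLE in place of TMM scaling, and without FL_NoUV 2. An antisense gene, E230016M11Rik, shares 19.1% of the exon bases of Gadd45a, with a mean count of 65.1 against 636. The strand setting of the counting is not given in the sources used here, so reads of the pair cannot be told apart. Gadd45g, the third family member, was not called, with log2 fold changes of 0.01 and 0.07 in WT and KO and of 0.92 ± 0.33 and 1.05 ± 0.33 in FL and cKO, where the libraries did not overlap (edgeR adjusted p = 0.0985 and 0.0526). Without FL_NoUV 1 or without cKO_NoUV 3 its cKO call passed the threshold.

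Btg2, a p53-induced antiproliferative factor that promotes mRNA deadenylation, rose in WT, FL and cKO. In FL it stood at 33.2, 53.8, 62.7 and 58.9 CPM without UV and at 129, 100, 139 and 129 CPM after it (1.25 ± 0.18, edgeR adjusted p = 0.000804). The cKO libraries stood at 52.8, 75.2, 68.6 and 65.8 CPM and then at 130, 129, 171 and 139 CPM (1.12 ± 0.18, edgeR adjusted p = 0.00145). Neither pair of groups overlapped, and both calls held in all 24 settings. The WT libraries stood at 66.5, 47.6 and 63.7 CPM and then at 101, 103 and 85.1 CPM (0.70 ± 0.22, edgeR adjusted p = 0.0425), a call that was lost without WT_UV 1, 2 or 3, WT_NoUV 2 or 3, or KO_UV 2 (edgeR adjusted p 0.0583 to 0.137), with the covariates (0.0502) and with the WT libraries fitted alone (0.0585). In KO, KO_NoUV 3 at 74.4 CPM lay above KO_UV 3 at 70.6 CPM, and the value of 0.63 ± 0.22 was not called (edgeR adjusted p = 0.0576). Sertad1, which binds CDK4 and acts on E2F-driven transcription, rose in all 4 groups and in every alternative setting. In WT it stood at 23.5, 16.5 and 15 CPM and then at 29.1, 58.5 and 47.4 CPM, and in KO at 12.2, 13.2 and 13.7 CPM and then at 43.9, 34.7 and 34.5 CPM. The FL libraries stood at 2.97, 7.21, 7.66 and 6.23 CPM and then at 14.9, 10.6, 19.7 and 14.9 CPM, and in cKO at 8.31, 7.03, 8.09 and 5.48 CPM and then at 11.1, 17.8, 22.9 and 17.5 CPM. No groups overlapped, and the rises were 2.45, 2.9, 2.46 and 2.39-fold in WT, KO, FL and cKO (log2 fold change 1.29 ± 0.24, 1.54 ± 0.24, 1.30 ± 0.28 and 1.26 ± 0.28, edgeR adjusted p from 0.000942 to 0.01).

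Zmat3, an RNA-binding p53 target, was the 1 gene of this role that fell. The WT libraries stood at 61.2, 82.6 and 77.2 CPM without UV and at 53, 41.9 and 56.5 CPM after it (-0.55 ± 0.15, edgeR adjusted p = 0.0225). The KO libraries stood at 79.7, 74.2 and 70.7 CPM and then at 54.3, 49.7 and 49.7 CPM (-0.55 ± 0.15, edgeR adjusted p = 0.019). The groups did not overlap in either. Its values of -0.10 ± 0.14 in FL and -0.06 ± 0.14 in cKO were not called. The WT call ended without WT_NoUV 2, WT_NoUV 3 or WT_UV 2 (edgeR adjusted p 0.0565 to 0.0873) and with the WT libraries fitted alone (0.148). The KO call ended without KO_NoUV 1, KO_NoUV 2, KO_UV 2 or KO_UV 3 (edgeR adjusted p 0.0521 to 0.0673) and with the covariates (-0.39, 0.218). Ccng1, cyclin G1, was not called. It had the second highest level per kb of exon among the members, and its log2 fold changes were 0.24 ± 0.24 in WT, 0.02 ± 0.24 in KO, 0.85 ± 0.35 in FL and 1.07 ± 0.35 in cKO. In cKO alone the libraries did not overlap, at 170 to 370 CPM without UV and 373 to 842 CPM after it (edgeR adjusted p = 0.0649). Without FL_NoUV 1 or FL_UV 2 the cKO call of Ccng1 passed the threshold.

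**Figure D2:**
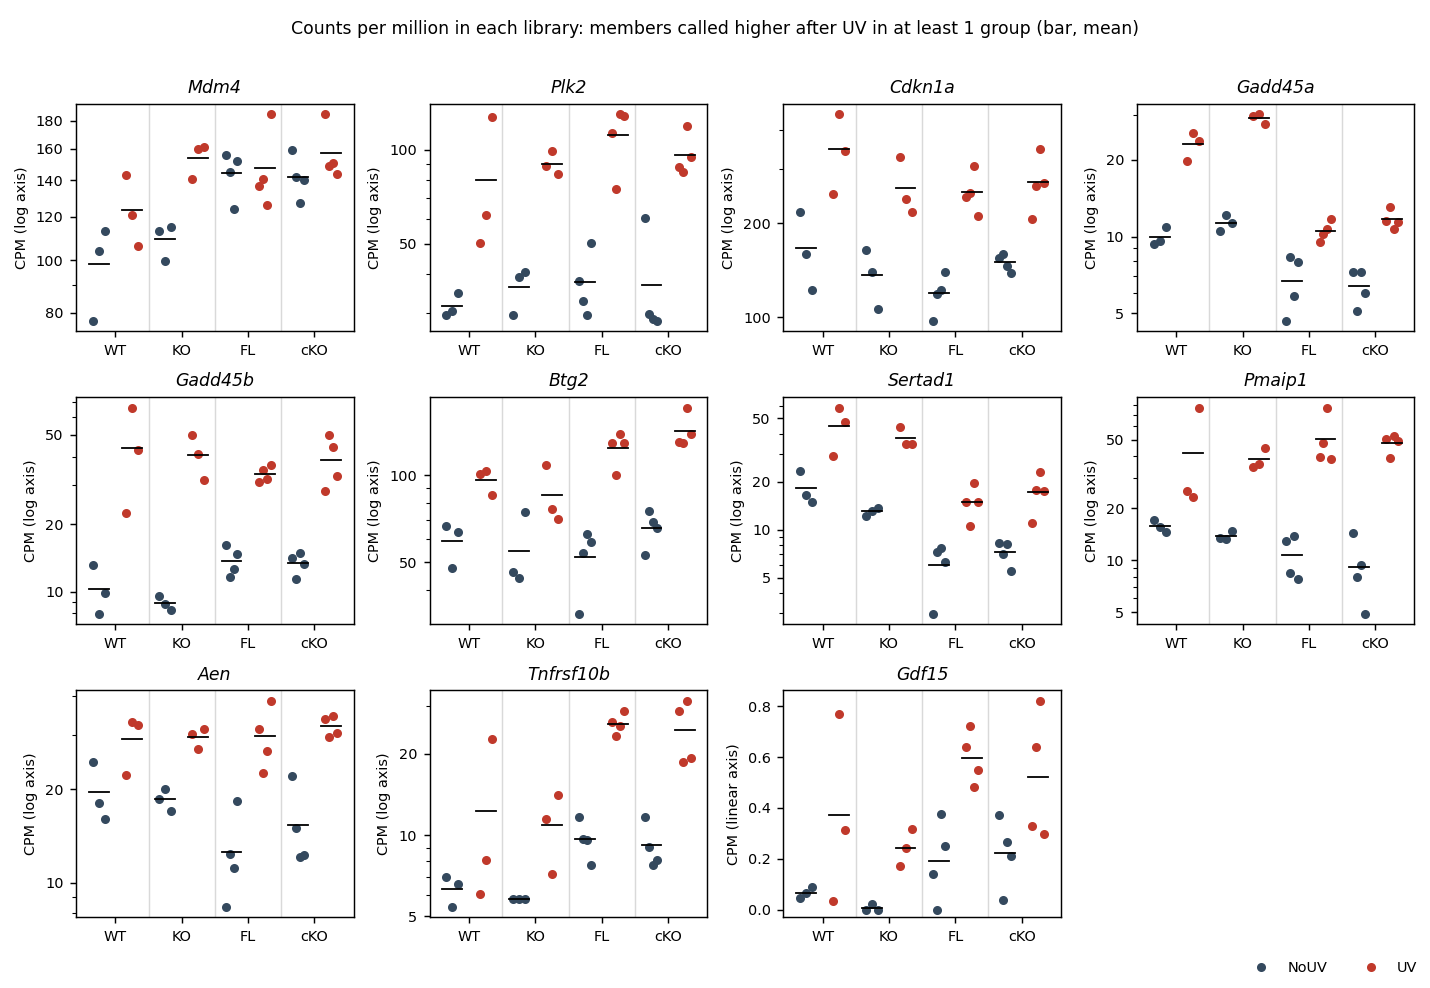
CPM in each library (points; NoUV dark, UV red; bar, group mean) of the 11 members called higher in at least 1 group, on log axes except for Gdf15. Pmaip1 in WT_UV 3, at 76.9, stands above WT_UV 1 and 2 at 25.2 and 23.4, and Tnfrsf10b after UV lies between 18.6 and 31.5 in FL and cKO.

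Of the 10 genes of intracellular cell death, 1 was called higher in WT, 2 in KO, 2 in FL and 2 in cKO (10%, 20%, 20% and 20%, against 8.91%, 11.3%, 3.52% and 4.57% of all genes), and 1 was called lower in WT and KO. Pmaip1, encoding the BH3-only protein NOXA, which neutralises MCL1, showed the largest called rise in FL and in cKO. In FL it stood at 12.9, 8.41, 13.9 and 7.82 CPM without UV and at 39.6, 47.9, 76.2 and 38.7 CPM after it. In cKO it stood at 14.4, 8.01, 9.32 and 4.89 CPM and then at 50.5, 39.2, 52.7 and 49.4 CPM. The lowest UV library was thus well above the highest NoUV library in both. In WT it stood at 17.1, 15.6 and 14.5 CPM and then at 25.2, 23.4 and 76.9 CPM, and in KO at 13.5, 13.3 and 14.8 CPM and then at 34.7, 36.3 and 45 CPM. The rises were 4.74-fold in FL, 5.23-fold in cKO, 2.66-fold in WT and 2.79-fold in KO (log2 fold change 2.24 ± 0.30, 2.39 ± 0.30, 1.41 ± 0.35 and 1.48 ± 0.36, edgeR adjusted p = 0.000651, 0.000347, 0.0153 and 0.00993). Without WT_UV 3 the WT value was 0.61 (edgeR adjusted p = 0.0274), and the WT call ended with no filter on low counts (0.0609) and with the WT libraries fitted alone (0.0814).

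Aen, an exonuclease that p53 induces during apoptosis, rose in KO, FL and cKO. The FL libraries stood at 8.35, 12.4, 11.1 and 18.3 CPM without UV and at 31.3, 22.5, 26.5 and 38.6 CPM after it (1.23 ± 0.24, edgeR adjusted p = 0.00538). The cKO libraries stood at 22.1, 15, 12.1 and 12.3 CPM and then at 33.7, 29.4, 34.4 and 30.3 CPM (1.05 ± 0.24, edgeR adjusted p = 0.0114). The groups did not overlap, and both calls held in all 24 settings. In KO it stood at 18.6, 20 and 17 CPM and then at 30.2, 27 and 31.2 CPM (0.67 ± 0.19, edgeR adjusted p = 0.0246), a call that ended without any 1 of the 6 KO libraries (0.0519 to 0.103) and with the covariates (0.162). In WT, WT_NoUV 1 at 24.5 CPM lay above WT_UV 1 at 22.2 CPM, and the value of 0.58 ± 0.19 was not called (edgeR adjusted p = 0.0524). The WT value passed the threshold in 5 of 19 alternative settings, among them DESeq2 and RLE scaling.

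Apaf1, the scaffold of the apoptosome, fell in the whole-body experiment. The WT libraries stood at 17.2, 14.9 and 24.8 CPM without UV and at 9.71, 6.94 and 11.6 CPM after it (-1.01 ± 0.25, edgeR adjusted p = 0.0142). The KO libraries stood at 17.8, 18 and 20.9 CPM and then at 8.65, 13.9 and 9.22 CPM (-0.83 ± 0.25, edgeR adjusted p = 0.0292). No libraries overlapped, whereas in FL and cKO they did and the values were 0.13 ± 0.19 and -0.12 ± 0.19. The WT call ended without WT_NoUV 3 (edgeR adjusted p = 0.0653) and with the WT libraries fitted alone (0.0689). The KO call ended without any 1 KO library but KO_UV 2 (0.0582 to 0.11), and the KO value was -0.42 with hair follicle and muscle scores as covariates (0.303).

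The 7 other genes of cell death were called in no group. Bax, the pore-forming effector of mitochondrial apoptosis, had 0.29 ± 0.34 in WT, 0.68 ± 0.35 in KO, 0.54 ± 0.34 in FL and 0.27 ± 0.34 in cKO. Its KO libraries did not overlap, at 4.8 to 5.2 CPM without UV and 7.54 to 8.14 CPM after it. WT_NoUV 1, at 14.3 CPM, was near the top of the WT libraries, and without it Bax was called in both WT and KO. Bbc3, encoding the BH3-only protein PUMA, was low, with group means from 0.828 to 1.88 CPM in the whole-body and from 3.02 to 3.9 CPM in the keratinocyte experiment, and its values ran from -1.03 ± 0.47 in KO, without overlap, to 0.15 ± 0.36 in FL. Without WT_UV 1 the KO value of Bbc3 was called. Perp, a desmosomal p53 target needed for epithelial adhesion, was by far the most abundant member per kb of exon, at 898 to 1320 CPM per kb in the 8 group means, and its values lay between -0.17 and -0.06. Ei24, a p53 target of the endoplasmic reticulum, ran from -0.16 ± 0.12 to 0.08 ± 0.10. Phlda3, which restrains AKT, ran from -0.12 to 0.39, Pidd1, a scaffold for caspase-2, from -0.03 to 0.58, and Trp53inp1, an autophagy and p53 cofactor, from 0.14 to 0.66. Trp53inp1 in FL missed the threshold narrowly (0.66 ± 0.20, edgeR adjusted p = 0.0539) and passed it without FL_NoUV 3 or FL_UV 3.

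Among the 4 receptors, Tnfrsf10b rose in the keratinocyte experiment. It encodes the mouse receptor for the death ligand TRAIL. In FL it stood at 11.7, 9.65, 9.57 and 7.79 CPM without UV and at 26.2, 23.4, 25.3 and 28.8 CPM after it, and in cKO at 11.7, 9.07, 7.79 and 8.11 CPM and then at 28.8, 18.6, 31.5 and 19.4 CPM. The groups were far apart in both (2.69 and 2.68-fold, log2 fold change 1.43 ± 0.20 and 1.42 ± 0.20, edgeR adjusted p = 0.000669 and 6e-04), and both calls held in all 24 settings. In WT it stood at 7, 5.43 and 6.6 CPM and then at 6.06, 8.07 and 22.8 CPM, where WT_UV 3 alone was clearly high. In KO the libraries did not overlap, at 5.79 to 5.82 CPM without UV and 7.16 to 14.1 CPM after it. The values of 0.96 ± 0.40 in WT and 0.92 ± 0.40 in KO were not called (edgeR adjusted p = 0.115 and 0.121), and passed the threshold without WT_UV 1 in WT and without WT_UV 3 in KO. Fas, the death receptor of FAS ligand, ran from -0.33 to 0.19. Eda2r, a receptor of ectodysplasin and a p53 target, ran from -0.32 ± 0.40 in KO to 0.80 ± 0.35 in FL, and was called in WT only without WT_UV 2. Epha2, an ephrin receptor of keratinocytes, ran from -0.24 to 0.49.

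Of the 6 genes of stress metabolism, repair and secretion, Sesn1 fell in WT and KO, Sesn2 fell in KO and Gdf15 rose in KO. Sesn1, a p53-induced inhibitor of mTORC1, stood in WT at 72.2, 79.8 and 65.9 CPM without UV and at 51.2, 25.5 and 26.2 CPM after it (-1.08 ± 0.25, edgeR adjusted p = 0.00998). In KO it stood at 91.6, 77.4 and 55 CPM and then at 31.9, 32.9 and 32.1 CPM (-1.21 ± 0.25, edgeR adjusted p = 0.00444). No libraries overlapped, and the level after UV was 0.472 and 0.433 times that before. The WT call ended with the WT libraries fitted alone (-1.07, edgeR adjusted p = 0.0548). In FL and cKO the values were -0.39 ± 0.21 and -0.30 ± 0.21, with overlap and not called. Sesn2, its stress-induced relative, fell in KO from 17.3, 14.8 and 13.8 CPM to 8.62, 6.5 and 7.44 CPM (-1.02 ± 0.33, edgeR adjusted p = 0.0432). This call ended with the replicate number as a block (0.0614), with the covariates (0.215) and without WT_NoUV 2 or any 1 of the 6 KO libraries (edgeR adjusted p 0.0513 to 0.124). In WT, WT_UV 3 at 18.8 CPM lay inside the range without UV, the value of -0.67 ± 0.33 was not called, and it passed the threshold without WT_UV 3.

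Gdf15, a secreted stress cytokine, was the least abundant member. In KO it had 0, 1 and 0 counts without UV and 5, 7 and 13 counts after it, and was called (edgeR adjusted p = 0.0193). The ratio of the summed counts, scaled by library totals, was 27.6 with an exact 95% interval of 4.52 to 1130 that covers counting error only. The call was lost without KO_NoUV 1, KO_NoUV 3 or KO_UV 3 (edgeR adjusted p 0.0641 to 0.0715) and with the covariates (0.137). In WT the counts were 2, 2 and 3 and then 1, 28 and 11, and WT_UV 1 lay below the NoUV libraries in CPM (edgeR adjusted p = 0.0572). In FL they were 1, 0, 11 and 8 and then 15, 10, 12 and 15, and in cKO 9, 1, 8 and 5 and then 8, 16, 6 and 6, with neither called although the FL libraries did not overlap in CPM. Ddit4, a stress-induced mTORC1 inhibitor, ran from -1.06 ± 0.42 in KO (edgeR adjusted p = 0.0889) to 0.31 ± 0.27 in FL, and passed the threshold in KO without KO_NoUV 3 or WT_NoUV 3. Rrm2b, the p53-controlled ribonucleotide reductase subunit, ran from -0.07 to 0.13, and Polk, a translesion DNA polymerase, from -0.14 to 0.11.

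**Figure D3:**
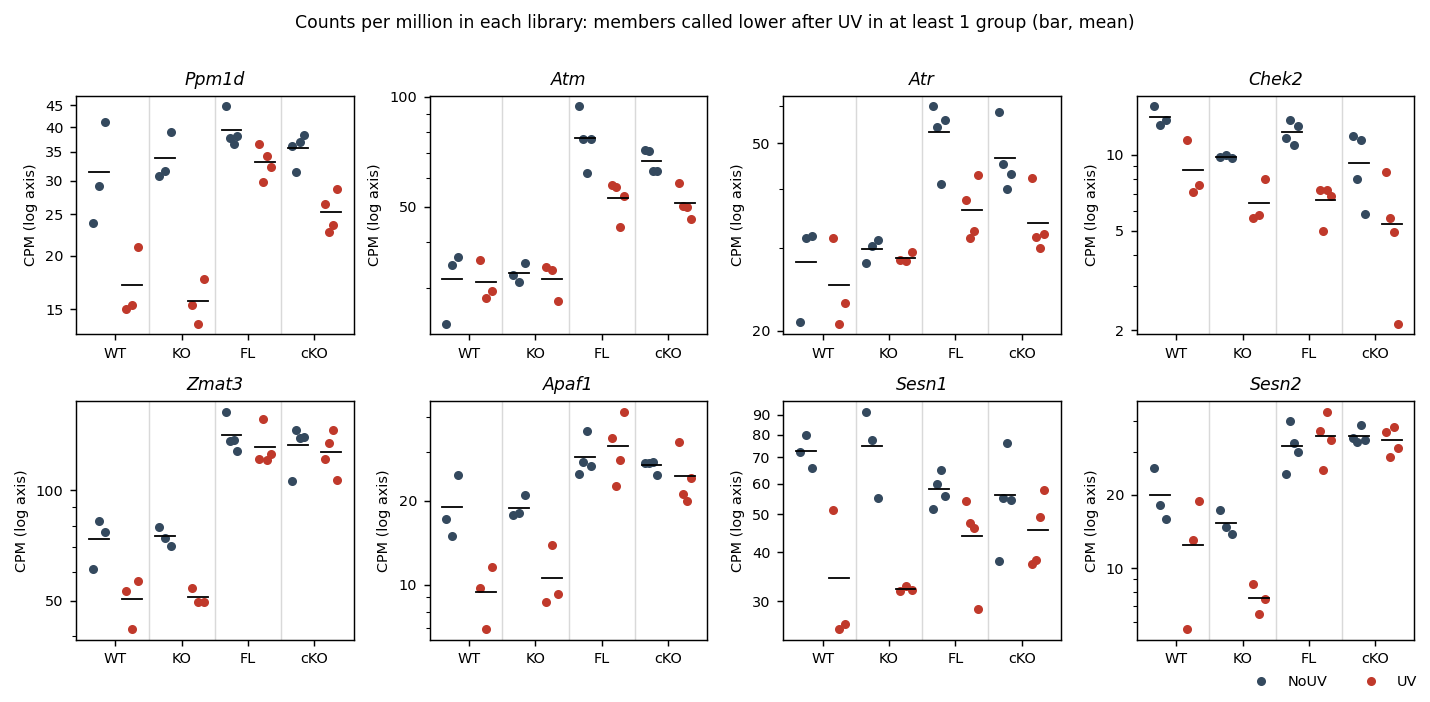
CPM in each library (points, log axes; NoUV dark, UV red; bar, group mean) of the 8 members called lower in at least 1 group. Sesn1 in KO lies at 31.9 to 32.9 after UV and at 55 to 91.6 without it, whereas Sesn2 overlaps between UV and NoUV in FL and cKO.

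Whether the UV effect differed by Vsir genotype was tested by the difference of log2 fold changes within each experiment. No member differed, in KO minus WT or in cKO minus FL, in edgeR (0.00% of all genes called in each), with 0 members at an unadjusted p under 0.05 in both, against 1.54% and 1.26% of genes, and 0 called by DESeq2. The members' differences ran from -1.08 to 1.86 in KO minus WT and from -0.51 to 0.23 in cKO minus FL. For Cdkn1a the difference was -0.12 (95% interval -0.91 to 0.66) in KO minus WT and -0.22 (-0.69 to 0.24) in cKO minus FL. These intervals leave room for differences in either direction, so the test does not show that the effects were equal. At matched treatment, edgeR also called 0 members between genotypes, where 0.00982% of genes were called for KO against WT without UV, 0.0442% after UV, and 0.00% for cKO against FL in both. Unadjusted p fell under 0.05 for 9, 9, 2 and 1 members in these 4 comparisons, against 15.8%, 15.1%, 4.71% and 5.30% of genes. Without UV, Fas ran higher in KO, 13.7 to 16.5 against 6.87 to 9.07 CPM in WT (0.89 ± 0.24, edgeR adjusted p = 0.144), and so did Ccng1, 496 to 644 against 233 to 404 CPM (0.86 ± 0.25, 0.161). DESeq2 called these 2 genes (adjusted p = 0.0197 and 0.0385) and no other member in the 4 genotype comparisons. With hair follicle and muscle scores as covariates, Fas was called after UV (1.01, edgeR adjusted p = 0.0159). With both WT libraries numbered 1 left out, Bbc3 (-1.40), Epha2 (-0.98), Sesn2 (-1.08) and Rrm2b (0.82) were called between KO and WT after UV (edgeR adjusted p 0.027 to 0.0394). Summed keratinocyte markers ran from 10700 to 16900 CPM in KO and from 19600 to 34700 CPM in WT, and their part in these differences was not tested.

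The control groups of the 2 experiments gave partly different calls, so the difference of their UV effects was tested in 1 fit of all 28 libraries. No member differed between FL and WT in edgeR, where 1.20% of 21851 genes were called, and 7 members, against 13.4% of genes, had an unadjusted p under 0.05. Apaf1, which fell in WT, had the smallest p, with a difference of 1.13 ± 0.31 (edgeR adjusted p = 0.07), and it was called by DESeq2 (adjusted p = 0.0294). The other 6 were Ppm1d (0.61 ± 0.23), Sesn2 (0.77 ± 0.36) and Zmat3 (0.43 ± 0.20), with higher values in FL, and Atm (-0.53 ± 0.22), Gadd45a (-0.60 ± 0.25) and Gadd45b (-0.82 ± 0.35), with lower ones. Leaving out WT_UV 3 brought Pmaip1 (1.62, edgeR adjusted p = 0.0369), Apaf1 (1.32, 0.0387) and Tnfrsf10b (1.27, 0.0499) past the threshold, and leaving out FL_UV 2 brought Apaf1 alone (1.26, 0.0413). Without WT_NoUV 1 and WT_UV 1, Gadd45b alone was called (-1.33, edgeR adjusted p = 0.0401). Strain, batch date and experiment cannot be told apart in this contrast.

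**Figure D4:**
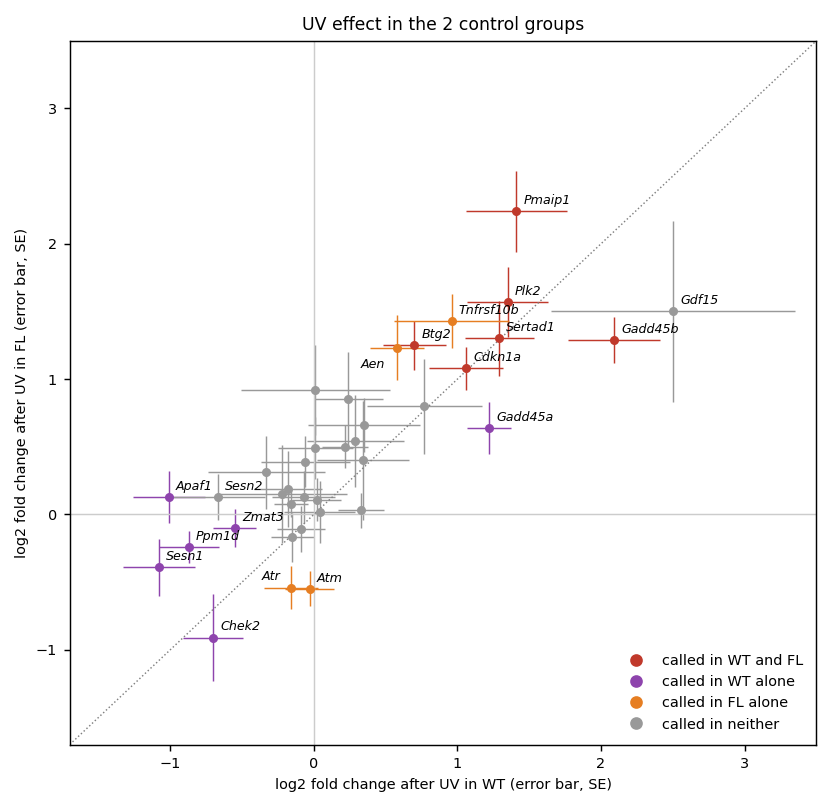
Log2 fold change after UV in WT (x axis) against FL (y axis) for the 37 members, with SE bars, coloured by where each was called; the dotted line marks equal values. Apaf1 lies at -1.01 in WT and 0.13 in FL, and Gadd45b at 2.09 and 1.29.

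Rising and falling members also differed in gene span, the genomic distance from the first to the last exon base in the whole-body table. The 11 members called higher in at least 1 group had a median span of 5.8 kb (2.13 to 71.1), the 8 called lower a median of 64.6 kb (18.5 to 98.5), and the 18 called in none a median of 11.8 kb (1.79 to 61.9). All 5 members called higher in every group spanned at most 9.75 kb. Across the 37 members, Spearman's rho of span with the log2 fold change was -0.51 in WT, -0.55 in KO, -0.62 in FL and -0.52 in cKO. Across all genes tested it was -0.32, -0.38, -0.35 and -0.39. These correlations are across genes that share the same libraries, and genes are not independent replicates. In WT, the median log2 fold change of all genes was 0.28 for spans of 2 to 5 kb and -0.20 for spans of 50 to 100 kb, and in FL 0.19 and -0.20. For comparison, Gadd45b, with a span of 2.13 kb, stood at 2.09 in WT. Sesn1 and Apaf1, with spans of 98.5 and 93.5 kb, stood at -1.08 and -1.01 in WT. The part of gene span in these changes was not tested.

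**Figure D5:**
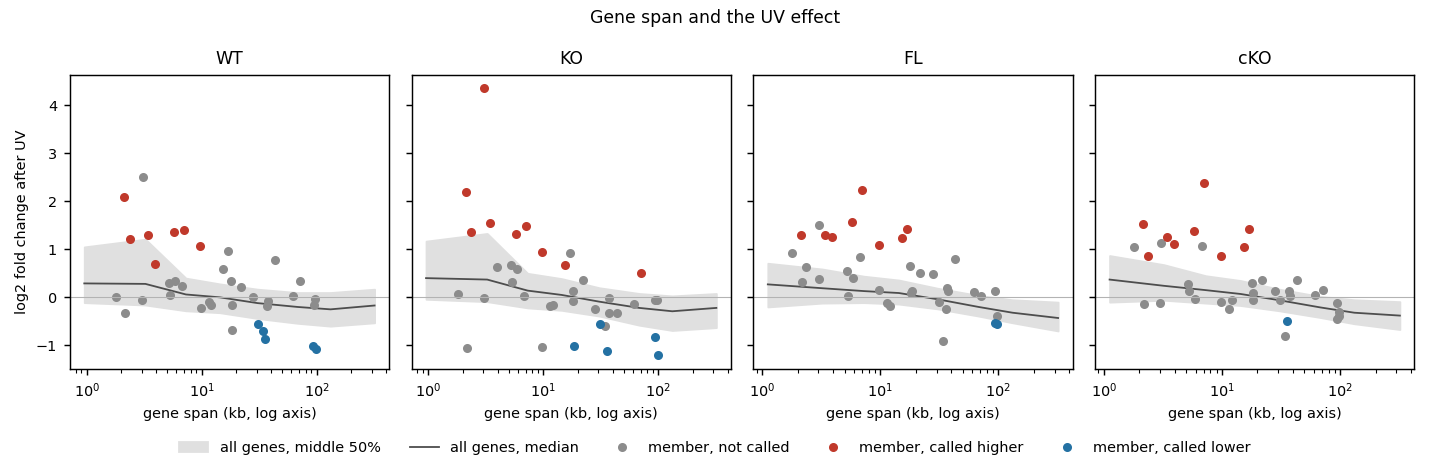
Log2 fold change after UV against gene span (kb, log axis) in WT, KO, FL and cKO, with members as points coloured by call and all genes tested as a line (median) and band (interquartile range) over 8 span ranges. The line falls from 0.29 in the shortest range of WT to -0.25 at 100 to 200 kb.

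Other genes of the pathway were taken from lists set beside the members. Of 25 tested p53 targets outside the members, 3 were higher and 0 lower in WT, 2 and 2 in KO, 2 and 0 in FL and 3 and 0 in cKO. The higher shares of 12%, 8%, 8% and 12% stood against 8.91%, 11.3%, 3.52% and 4.57% of all genes, near the background in WT and under it in KO. Their median log2 fold change stood between -0.14 and 0.08. Among them, Ddb2, which recognises UV photoproducts, rose in WT (0.53 ± 0.17, edgeR adjusted p = 0.0456) and KO (0.68 ± 0.17, 0.013), and Ercc5, the 3′ nuclease of nucleotide excision repair, in WT (0.43 ± 0.13, 0.0334), KO (0.48 ± 0.13, 0.0175) and cKO (0.44 ± 0.12, 0.0311). Ptprv, a phosphatase of p53-induced arrest, rose in WT (1.16 ± 0.26, edgeR adjusted p = 0.00928). Rap2b, a small GTPase, rose in FL (0.61 ± 0.13, edgeR adjusted p = 0.0076) and cKO (0.44 ± 0.13, 0.0387), had -0.77 ± 0.26 in WT, and differed between FL and WT (1.36 ± 0.28, 0.0167).

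Of 24 genes of DNA damage sensing and checkpoints, 0 were higher and 6 lower in WT, 1 and 9 in KO, 0 and 2 in FL and 0 and 1 in cKO. The lower shares of 25%, 37.5%, 8.33% and 4.17% stood against 9.84%, 11.1%, 4.09% and 5.15% of all genes. Wee1, the kinase that holds CDK1 inactive, fell in WT (-1.37 ± 0.32, edgeR adjusted p = 0.0103) and KO (-1.39 ± 0.32, 0.0075), as did Cdc25b, the phosphatase opposing it (-1.09 ± 0.26, 0.0116, and -1.23 ± 0.26, 0.00514), and Rad1, of the 9-1-1 clamp (-0.66 ± 0.21, 0.0442, and -1.03 ± 0.21, 0.00419). Rad17, the loader of that clamp, fell in WT, KO and cKO (-0.74 ± 0.18, -0.75 ± 0.18 and -0.43 ± 0.11, edgeR adjusted p = 0.0127, 0.00901 and 0.0198). Prkdc, the DNA end-joining kinase, fell in FL (-0.53 ± 0.13, edgeR adjusted p = 0.0208), had 0.51 ± 0.19 in WT, and differed between them (-1.05 ± 0.23, 0.0244).

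Of 15 tested p53 family members and regulators, 0 were higher and 5 lower in WT and KO, 1 and 3 in FL and 1 and 4 in cKO, with lower shares of 33.3%, 33.3%, 20% and 26.7% against the same background. Both p53 relatives fell in all 4 groups. Trp63, the p63 gene that maintains basal keratinocytes, had -0.76 ± 0.23 in WT, -1.03 ± 0.23 in KO, -0.60 ± 0.14 in FL and -0.49 ± 0.14 in cKO (edgeR adjusted p = 0.0344, 0.00632, 0.0168 and 0.0378). Trp73 had -1.82 ± 0.23, -1.94 ± 0.24, -1.15 ± 0.28 and -0.92 ± 0.28 (edgeR adjusted p = 0.000482, 0.000245, 0.0201 and 0.0486). Ppp1r13b, encoding the p53 partner ASPP1, fell in all 4 as well (-0.74 to -1.02 in WT and KO, -0.53 to -0.76 in FL and cKO), and Ep300, the acetyltransferase p300, in WT (-0.63 ± 0.13, edgeR adjusted p = 0.00582) and KO (-0.65 ± 0.13, 0.00389). Of 16 tested BCL2 family members and caspases, 3 were higher and 5 lower in WT and KO, 2 and 1 in FL and 3 and 0 in cKO. These were higher shares of 18.8%, 18.8%, 12.5% and 18.8%, against 8.91%, 11.3%, 3.52% and 4.57% of all genes, and lower shares of 31.2%, 31.2%, 6.25% and 0%, against 9.84%, 11.1%, 4.09% and 5.15%. Mcl1, the survival protein that NOXA binds, rose in all 4 groups (0.46 ± 0.14, 0.47 ± 0.14, 0.73 ± 0.11 and 0.62 ± 0.11 in WT, KO, FL and cKO, edgeR adjusted p from 0.00131 to 0.0414), and so did Cycs, cytochrome c (0.67 ± 0.16, 0.63 ± 0.16, 0.49 ± 0.14 and 0.73 ± 0.14, edgeR adjusted p from 0.00344 to 0.0394). Casp8, the initiator caspase of death receptors, fell in WT (-0.80 ± 0.16, edgeR adjusted p = 0.00448) and KO (-0.67 ± 0.16, 0.00857), and Bmf, a BH3-only gene, in WT (-1.71 ± 0.28, 0.0015) and KO (-2.17 ± 0.28, 0.000333).

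Some cell type markers were also called after UV, most often in KO. Over all genes, 8.91% were called higher and 9.84% lower in WT, and 11.3% and 11.1% in KO. In FL these shares were 3.52% and 4.09%, and in cKO 4.57% and 5.15%. In lists of 5 to 11 tested markers, 1 call cannot be told from these shares. Hair follicle markers were called lower in 2, 4, 1 and 1 of 10 or 11 tested in WT, KO, FL and cKO, with medians of -0.23, -1.22, -0.48 and -2.25, and their summed level ran from 175 to 296 CPM in WT_NoUV and from 79 to 191 CPM in WT_UV. Neutrophil markers had medians of 0.55, 2.1, 0.1 and 1.22, with 3 of 5 called higher in KO. Fibroblast markers had medians of -0.06, 0.64, 0.64 and 0.12, with 3 of 6 called higher in KO, and T cell markers medians of -0.78, -0.98, -0.51 and -0.04, with 1 of 6 called lower in WT and 3 in KO. Keratinocyte markers had medians from -0.28 to -0.10, with 1 of 8 called lower in KO and none elsewhere. Skeletal muscle markers had medians of 0.40, -0.09, 0.95 and 0.98 in WT, KO, FL and cKO, with 2 of 10 called higher and 1 lower in WT, 1 and 1 in KO, 0 in FL and 1 higher in cKO. Adipocyte markers had medians of 0.53, 0.36, 0.81 and 0.95, with 1 of 5 called higher in KO. Macrophage markers had medians of 0.31, 0.79, 0.81 and 0.36, with 1 of 6 called higher in KO. Endothelial markers had medians from -0.18 to 0.32, with 1 of 5 called lower in WT and in KO. With hair follicle and muscle scores as covariates, 9 members were called in WT, 8 in KO, 12 in FL and 10 in cKO, and Plk2, Gadd45b, Sertad1 and Pmaip1 were called in all 4. Without FL_NoUV 4 and cKO_NoUV 1, the libraries rich in hair follicle RNA, 9 members were called in FL and 10 in cKO. In KO, summed hair follicle markers ran from 213 to 238 CPM without UV and from 84 to 87.9 CPM after it. A fit with that score as a covariate therefore cannot tell composition from UV there, and a call that ended may reflect lost UV contrast. The part of cell composition in the members' changes was not tested.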

How the data were processed

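Gene counts from bulk skin RNA sequencing were used as deposited, in 2 tables, 1 for each experiment. The authors counted reads per gene with featureCounts after trimming with cutadapt 4.6 and alignment with HISAT2 2.1.0 to GRCm38, per the submitters' processing notes. The version of featureCounts and its strand setting are not given in the sources used here. No sample column was left unused. Each library is 1 sample in the labels, and where nothing says that samples of a group came from separate animals, p-values measure only the spread between these samples.

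Counts were fitted with edgeR 4.0.16 in R 4.3.3 (TMM scaling, filterByExpr, robust quasi-likelihood, two-sided, 1 coefficient per group), separately for the 12 and the 16 libraries, and with 8 groups in 1 fit for FL against WT. This kept 20365, 19718 and 21851 genes, and adjusted p covers all of them. The members and the gene lists were chosen with earlier results of these data known. All 37 members are named. Those called in at least 1 UV comparison are given by library in the groups where they were called, and the others by ranges. In simulated data for the WT comparison (20365 genes), 100 genes were changed 2-fold and 100 were changed 4-fold. The fit recovered 38% and 80% of these, and 3.28% of its calls were false. For the FL comparison (19718 genes, changed likewise) it recovered 39% and 75%, with 5% of calls false. A far larger share of genes was called in the data (18.7% in WT and 7.62% in FL). These recovery rates therefore do not carry over to the tests above.

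Deviations of same-numbered UV and NoUV libraries from their group means correlated at 0.13 to 0.18 in KO and 0.23 to 0.49 in cKO. In WT (-0.38, -0.24 and 0.33) and FL (-0.12 to 0.53) the correlations were mixed in sign. Differently numbered libraries were not compared, so these values do not show whether the numbers pair samples. The main fit used no block. Alternatives were DESeq2 1.42.0, RLE scaling, no filter on low counts, a replicate block, the compared groups alone, covariates, and leaving libraries out. The joint omissions of FL_NoUV 4 with cKO_NoUV 1 and of WT_NoUV 1 with WT_UV 1 were chosen after seeing the data.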

Additional observations from a re-analysis of the deposited data

Results flagged for a closer look

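In 4 of 76 groups of 4 libraries, among the 19 members called after UV, 1 library lay far from the other 3, and chance gives about 1 in 20 such groups. Plk2 stood at 60.4 CPM in cKO_NoUV 1, against 28.3 to 29.8 CPM in the other cKO_NoUV libraries. Zmat3 stood at 157 CPM in FL_UV 2, against 121 to 126 CPM. Mdm4 stood at 185 CPM in cKO_UV 1, against 144 to 151 CPM. Apaf1 stood at 24.8 CPM in cKO_NoUV 4, against 27.3 to 27.5 CPM. Groups of 3 libraries, all of those in WT and KO, were not examined in this way.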

How the results depend on the processing

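Of 973 alternative values of called members, 875 stayed past the threshold, 98 did not and 0 changed direction. Members called in WT numbered 12, 4 with the compared groups alone and 6 to 14 with 1 library left out (6 without WT_NoUV 3). In KO they numbered 14, 8 with covariates, 18 with the compared groups alone and 8 to 17 with 1 library left out. In FL and cKO they numbered 10 each, and 9 to 11 and 10 to 14 with 1 library left out. DESeq2 gave 15 in FL and 12 in cKO, and no filter on low counts gave 10 and 8. Between KO and WT 0 were called, against 2 without UV in DESeq2, and after UV 1 with covariates and 4 without WT_NoUV 1 and WT_UV 1. For FL minus WT 0 were called, against 1 in DESeq2, 1 without WT_NoUV 1 and WT_UV 1, and 0 to 3 with 1 library left out (3 without WT_UV 3, 1 without FL_UV 2).

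Over all genes, 3817 were called in WT, 2392 with covariates, 1288 with the compared groups alone and 2734 to 4315 with 1 library left out. In KO 4552 were called, 2553 with covariates, 7493 with the compared groups alone and 2832 to 5683 with 1 library left out (2832 without KO_NoUV 2, 2992 without KO_UV 3). In FL 1502 were called, 2304 in DESeq2, 992 without the filter, 953 with the compared groups alone and 884 to 1696 with 1 library left out (904 without FL_NoUV 2, 1000 without FL_NoUV 4, 884 without FL_UV 4). In cKO 1917 were called, 1276 without the filter and 1178 to 2424 with 1 library left out (1195 without cKO_NoUV 2, 1178 without cKO_NoUV 3). For KO against WT without UV 2 were called, 573 in DESeq2, 185 without the filter, 1 with covariates, 4 with the compared groups alone, 15 without WT_NoUV 1 and WT_UV 1, and 2 to 27 with 1 library left out. After UV 9 were called, 429 in DESeq2, 162 without the filter, 693 with covariates, 835 without WT_NoUV 1 and WT_UV 1, and 2 to 155 with 1 library left out (155 without WT_NoUV 1). For cKO against FL 0 were called, and DESeq2 gave 6 without UV and 5 after it. Without the filter, 1 was called without UV. For FL minus WT 262 were called, 715 in DESeq2, 137 without the filter, 20 with the compared groups alone, 163 without FL_NoUV 1 and cKO_UV 3, 157 without WT_NoUV 1 and WT_UV 1, and 65 to 423 with 1 library left out (94 without WT_NoUV 1, 162 without WT_NoUV 2, 65 without WT_UV 2, 423 without WT_UV 3, 141 without FL_UV 1, 102 without FL_UV 3). The cause of these shifts was not tested.

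With the replicate number as a block, KO lost Mdm4 (edgeR adjusted p = 0.0577) and Sesn2 (0.0614), and cKO gained Atm (0.0201) and Atr (0.0204). In FL, Mdm2 (0.0475) and Trp53inp1 (0.0378) passed the threshold. The block changed no other member's call after UV. Over all genes the block gave 2129 calls in FL and 2553 in cKO, against 1502 and 1917 in the main fit. In WT and KO it gave 3687 and 4409, against 3817 and 4552. For FL minus WT it gave 332, against 262. Between genotypes it gave 22 and 31 calls for KO against WT without and after UV, and 1 for cKO against FL without UV. The shallowest library, FL_NoUV 1, holds 7.12 M counts, so 3 counts there amount to 0.422 CPM, above the level of Gdf15 in every NoUV library.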
